A study of Mus musculus with 62 samples.

Results

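Liver was compared with 2 white fat depots in male mice with an intact *Fam13a* gene. The members were the libraries whose labels give regular chow as the diet and WT as the *Fam13a* genotype, which were 12 of the 62 libraries of the series: 4 from liver, 4 from subcutaneous fat (SAT, the inguinal pad) and 4 from visceral fat (VAT, the gonadal pad). The mice were *Mus musculus* of the C57BL6 background, and no transgene or drug is named for any of the 3 groups. The study's methods describe an overnight fast before tissues were taken for histology and give an age for that work, but do not say whether either holds for the RNA libraries. The rest of the series holds *Fam13a* KO mice and mice fed a high-fat diet (HFD). The labels do not say which liver and which fat pad came from the same mouse, nor that each library was a separate mouse, so p-values measure the spread between libraries, which may in part be technical. A gene was called liver-biased only where it was higher in liver than in SAT and also higher in liver than in VAT, and fat-biased where it was lower in liver than in both, each at a false discovery rate (FDR) of 10% in edgeR's quasi-likelihood test. Levels are CPM, counts scaled to 1000000 per TMM-scaled library, log2 fold changes are liver minus depot with their standard error (SE), and 17073 of 48795 genes had enough counts to be tested.

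Hepatocytes make most plasma proteins, form bile acids, release glucose, detoxify ammonia as urea, and burn fatty acids to ketone bodies for export. White adipocytes store triglyceride in a single large droplet, take up fatty acids that lipoprotein lipase frees from circulating particles, release them again by lipolysis, and secrete adipokines such as leptin and adiponectin. Both tissues take up glucose, make fatty acids and respond to insulin, often through different members of the same enzyme or transporter family. In bulk tissue, a lower level cannot be split into fewer cells of a type and less RNA per cell.

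The marker genes went with the labels. The summed level of 8 hepatocyte markers (*Alb*, *Apoa1*, *Ttr*, *Cyp2e1*, *Cps1*, *Serpina1e*, *Tat* and *Hnf4a*) was 79030 to 124100 CPM in liver, 814 to 1400 CPM in SAT and 1396 to 3329 CPM in VAT, and in fat most of it was *Cyp2e1*. The sum of 8 adipocyte markers (*Adipoq*, *Plin1*, *Cidec*, *Lep*, *Pparg*, *Fabp4*, *Lipe* and *Slc7a10*) was 4123 to 7643 CPM in SAT, 6323 to 12750 CPM in VAT and 51.0 to 122 CPM in liver. Markers of other cell types were present in the fat pads. Summed lymphocyte markers were 808, 829.9, 855 and 288 CPM in the 4 SAT libraries against 11.3 to 17.6 CPM in liver and 15.2 to 21.97 CPM in VAT, so that SAT library 4 was the lowest of its group. Skeletal muscle markers summed to 49.6 to 253 CPM in SAT and 43.6 to 92.2 CPM in VAT, and mesothelial markers to 93.9 to 215 CPM in VAT and at most 5.91 CPM elsewhere. VAT library 2 also stood apart, with epididymal markers at 4567 CPM against 58.0, 3.21 and 9.95 CPM in the other VAT libraries and with liver plasma-protein transcripts at a median of 0.154% of their mean liver level, against at most 0.0114% in the other fat libraries. Total counts were 8662690 to 28723319 per library, and a single ribosomal RNA gene took over 10% of them in 5 libraries (liver 3, SAT 1, 2 and 4, VAT 3), with at most 25.7% in any library. Each tissue was sequenced on a lane of its own, so tissue and lane cannot be told apart within these 12 libraries.

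**Figure D1:**
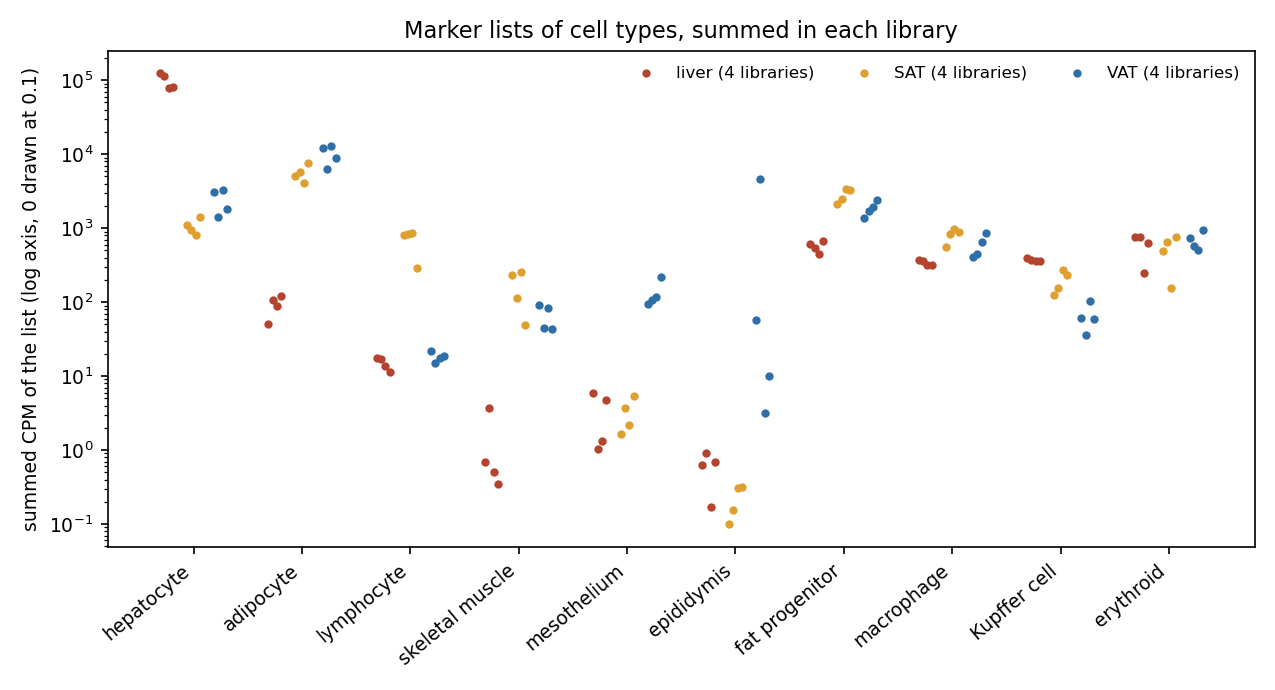
Summed CPM (log axis) of the marker genes of 10 cell types in each of the 12 libraries, coloured by tissue, with sums of 0 drawn at the bottom of the axis. Hepatocyte sums in liver (79030 to 124100 CPM) lie above those of every fat library, adipocyte sums in fat (4123 to 12750 CPM) lie above those of every liver library, lymphocyte markers are high in SAT alone, and VAT library 2 stands apart for epididymal markers at 4567 CPM.

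Most tested genes separated liver from fat. Liver was higher than SAT for 6077 genes (35.6% of those tested) and lower for 7080 (41.5%), and it was higher than VAT for 6031 (35.3%) and lower for 6367 (37.3%). Both comparisons use the same 4 liver libraries. By the rule that a gene must differ from both depots, 5090 genes (29.8%) were liver-biased and 5317 (31.1%) were fat-biased, 219 (1.28%) were higher than one depot and lower than the other, 4303 (25.2%) differed from a single depot, and 2144 (12.6%) differed from neither. With a difference of at least 4-fold against each depot, 1472 genes (8.62%) were liver-biased and 2333 (13.7%) were fat-biased, the latter 2269 (13.3%) when genes with 3 counts or fewer in a tissue were held at the smallest fold those counts allow. The split between the directions depends on how libraries are scaled: liver-biased genes were 48.9% of all biased genes with TMM scaling, 34.6% with upper-quartile scaling (3749 against 7072) and 14.7% with total counts alone (1838 against 10676). Under those 2 scalings the median log2 fold change of all tested genes moved from -0.13 to -0.48 and -1.21 against SAT, and from -0.05 to -0.38 and -1.14 against VAT. With the ribosomal RNA gene left out, the 10 most abundant genes took 37.3% to 43.0% of the remaining counts in liver and 30.3% to 37.0% in fat.

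**Figure D2:**
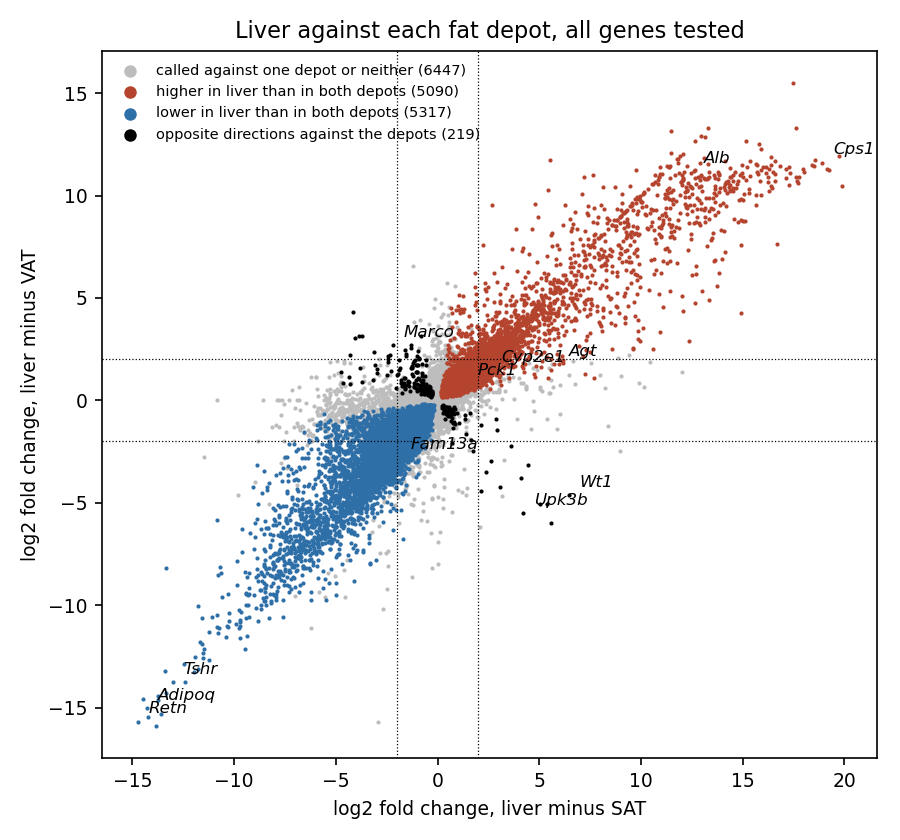
Log2 fold change of liver against SAT (x axis) and against VAT (y axis) for the 17073 tested genes, coloured by class, with dotted lines at a 4-fold difference and 12 named genes. The 5090 liver-biased genes fill the upper right, the 5317 fat-biased genes the lower left, and the 219 genes with opposite directions against the depots the other corners. The axes share the liver libraries.

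Between genes, levels were compared per length as TPM, counts divided by merged exon length and scaled to a sum of 1000000. Only genes that differed by at least 4-fold from both depots were ranked. The liver-biased ones with the highest mean liver level were *Alb* (39160 TPM), *Apoa2* (10510), *Serpina3k* (9922), *Hpx* (8976), *Fabp1* (7980), *Apoa1* (7060), *Mup3* (6926), *Mat1a* (5942), *Apoe* (5432) and *Serpina1e* (5020). They code for secreted plasma proteins, apolipoproteins and a urinary pheromone carrier, apart from the fatty acid carrier *Fabp1* and the methionine enzyme *Mat1a*. The fat-biased genes at 4-fold or more with the highest mean level over both depots were *Cfd* (10030 TPM), *Car3* (8500), *Gsn* (5120), *Fabp4* (3083), *Adipoq* (3061), *Cidec* (3057), *Ifi27l2a* (2927), *Cd36* (2847), *Plin4* (1649) and *Txnip* (1390). Among these, *Cfd* and *Adipoq* code for adipokines, *Fabp4* and *Cd36* for proteins that carry fatty acids, and *Cidec* and *Plin4* for coats of the lipid droplet.

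The 120 bases before the start of 3 liver-biased and 3 fat-biased genes are given here because these genes lie at the far ends of the contrast and were each at a far lower level in the other tissue. They are RefSeq sequences on build GRCm38.p6, written from 5′ to 3′ along the strand of the gene. Capitals mark 4 motifs searched on both strands: TATAAA, the TATA box; CCAAT, the core of the box of that name; GTTAAT, part of HNF1-type sites; and TTGCNNAA, a C/EBP-like site.
Alb: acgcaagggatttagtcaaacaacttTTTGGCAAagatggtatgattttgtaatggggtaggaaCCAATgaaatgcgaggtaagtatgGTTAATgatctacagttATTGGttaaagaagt
Fabp1: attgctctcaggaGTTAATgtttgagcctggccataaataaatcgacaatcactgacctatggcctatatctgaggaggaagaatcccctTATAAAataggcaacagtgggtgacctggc
G6pc: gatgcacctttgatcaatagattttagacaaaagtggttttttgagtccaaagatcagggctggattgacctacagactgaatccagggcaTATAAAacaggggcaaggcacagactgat
Adipoq: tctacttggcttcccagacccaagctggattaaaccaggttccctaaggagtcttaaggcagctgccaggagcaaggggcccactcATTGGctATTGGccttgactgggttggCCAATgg
Cfd: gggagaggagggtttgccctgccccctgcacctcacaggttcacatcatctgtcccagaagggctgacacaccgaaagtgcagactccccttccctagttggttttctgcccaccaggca
Plin1: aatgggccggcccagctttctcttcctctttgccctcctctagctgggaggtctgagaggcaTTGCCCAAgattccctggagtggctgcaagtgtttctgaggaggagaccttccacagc
They are found at chr5:90460750-90460869 (+) for *Alb*, chr6:71199759-71199878 (+) for *Fabp1*, chr11:101367596-101367715 (+) for *G6pc*, chr16:23146416-23146535 (+) for *Adipoq*, chr10:79890733-79890852 (+) for *Cfd* and chr7:79732777-79732896 (-) for *Plin1*. Over the 250 bases before the start, GTTAAT was present for 9.44% of 1038 liver-biased genes at 4-fold or more that had a RefSeq promoter, 4.2% of 1475 such fat-biased genes, 3.06% of 2945 genes at a like level in the 3 tissues and 4.29% of 11692 tested genes, and for 6.52% of all 27025 promoters in the table. TTGCNNAA was present for 12.1%, 8.81%, 6.69% and 7.92% of the same groups in that order and for 9.55% of all promoters, TATAAA for 11.7%, 9.56%, 4.86% and 7.17% and 13% of all, and CCAAT for 40.3%, 34%, 36.3% and 36% and 34.5% of all. The median number of CG steps in those 250 bases was 7 for the liver-biased genes, 11 for the fat-biased genes and 18 for the genes at a like level, against 15 for tested genes. These are counts of letters in a window. Binding was not measured, and the 120 bases printed for *Cfd* held none of the 4 motifs.

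Metabolic genes leaned to liver. Of 640 distinct genes in 24 metabolic lists, 633 were tested, and of these 432 (68.2%) were liver-biased, 107 (16.9%) fat-biased, 5 opposite against the depots, 68 different from a single depot and 21 different from neither, against 29.8% and 31.1% of all tested genes in the first 2 classes. The 7 untested genes (*Aqp3*, *Cpt1b*, *Cyp26a1*, *Fabp3*, *Fbp2*, *Hamp2* and *Itln1*) had a mean of at most 1.75 CPM in every tissue. The lists were written with earlier results of these data known and hold many genes known to be specific to a tissue, so their shares describe the lists and are not independent evidence of a direction. A gene near 0 in fat could enter the tests only through liver, and the reverse. Scaling by total counts alone moved the median of all tested genes to -1.21 against SAT and -1.14 against VAT. Against VAT, the medians for glycolysis (1), branched-chain amino acids (0.59), sterol synthesis (0.54) and the tricarboxylic acid cycle (0.73) were smaller than that shift. The direction of such list medians therefore rests on the scaling.

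**Figure D3:**
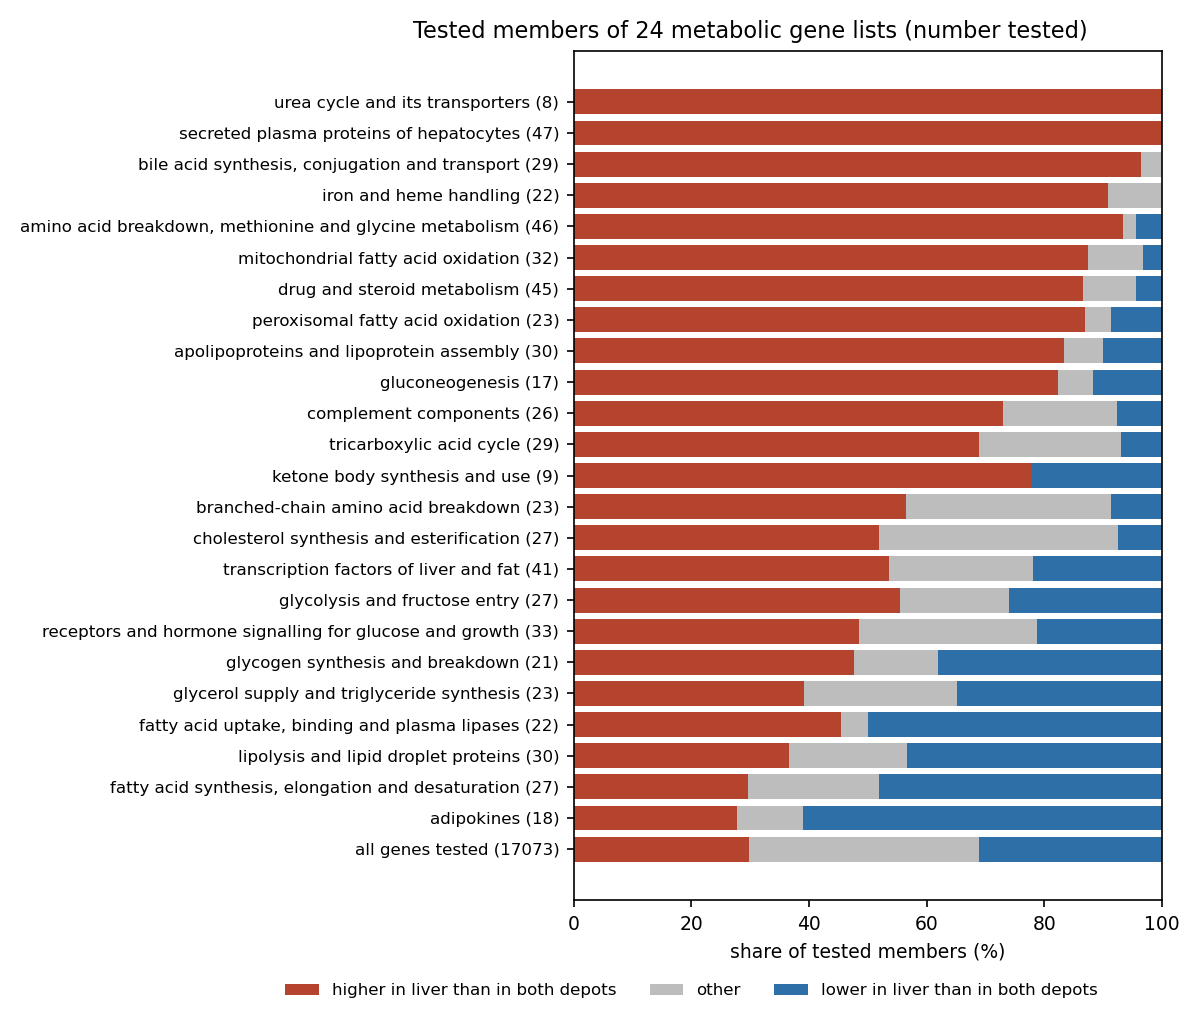
Share (%) of the tested members of each of 24 metabolic lists, and of all 17073 tested genes, that were higher in liver than in both depots, lower than in both, or neither of these (other), with the number tested beside each name. Plasma proteins and the urea cycle are liver-biased throughout, while adipokines, lipogenesis and lipolysis hold more fat-biased than liver-biased members.

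The secreted proteins of hepatocytes gave the widest separation. All 47 listed plasma-protein genes were liver-biased, 45 of them at 4-fold or more, with a median log2 fold change of 12.24 against SAT and 10.26 against VAT, or 11.91 and 10.26 with genes at 3 counts or fewer in a tissue held at their bound, against -0.13 and -0.05 over all tested genes. *Alb*, which codes for albumin, was at 91030, 81800, 45700 and 39830 CPM in the 4 livers, 14.2, 12.9, 6.89 and 7.83 CPM in SAT and 11.6, 91.8, 4.99 and 2.81 CPM in VAT. Liver was thus higher by 12.6 (SE 1.51, adjusted p = 8.2e-06) on the log2 scale than SAT and by 11.18 (SE 1.44, adjusted p = 1.8e-05) than VAT, and VAT library 2 had the highest level among the fat libraries. Without that library the excess over VAT was 13.27 on the log2 scale, and the list's median against VAT was 13.02. *Hpx*, the plasma heme scavenger, was at 6511, 3899, 10880 and 15360 CPM in liver against at most 4.16 CPM in fat. *Fgb*, a fibrinogen chain, had 4614, 4504, 6221 and 8133 CPM in liver and no count in any SAT library, which made it at least 128500-fold higher there than in SAT. VAT held 0.167, 5.05, 0.238 and 0 CPM. The same order, with VAT library 2 the highest fat library, held for *Ttr*, the thyroxine and retinol carrier, at 2270 to 3427 CPM in liver and 0.2, 4.66, 0 and 0 CPM in VAT. *Mup20*, a major urinary protein that acts as a male pheromone, had 1904 to 3253 CPM in liver and none in SAT, with the reservation that the *Mup* genes are near-identical copies whose counts may be split unevenly. *Hamp*, the iron hormone hepcidin, had 184, 183, 319.8 and 114 CPM in liver and at most 0.683 CPM in fat.

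Some plasma-protein genes were also expressed in fat. *Rbp4*, the retinol carrier of plasma, which fat also secretes, was at 1071, 1124, 1144 and 1090 CPM in liver, 30.7, 29.6, 14.5 and 28.1 CPM in SAT and 63.3, 33.9, 44.8 and 37.6 CPM in VAT. The liver excess was 5.43 (SE 0.3, adjusted p = 1.1e-08) and 4.62 (SE 0.28, adjusted p = 2.8e-08). *Agt*, the precursor of angiotensin, was at 480.3 to 516 CPM in liver but differed between the depots, with 7.09, 8.699, 5.499 and 10.5 CPM in SAT and 179, 93.1, 214 and 94.1 CPM in VAT. Its liver excess was 5.97 (SE 0.34, adjusted p = 1.3e-08) against SAT and only 1.77 (SE 0.28, adjusted p = 9.4e-05) against VAT. SAT minus VAT was -4.2 (SE 0.31, adjusted p = 3.8e-06). Differences between the depots were common, since SAT differed from VAT for 8028 of the tested genes (47%). *Hp* (haptoglobin) and *Trf* (transferrin), named after their values were seen, had 116 to 605 and 18.8 to 68.95 CPM in SAT and 274 to 670.5 and 53.1 to 97.7 CPM in VAT, beside 2660 to 8090 and 382 to 570.5 CPM in liver.

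The complement list divided by component. Of its 26 genes 19 were liver-biased and 2 were fat-biased, and 5 differed from a single depot, with medians of 3.69 against SAT and 3.2 against VAT. The terminal components *C8a*, *C8b* and *C9* were at 779.6 to 1344, 334 to 433 and 395 to 618 CPM in liver and at most 1.34, 0.356 and 0.653 CPM in fat. The 2 fat-biased members were *Cfd*, complement factor D or adipsin, and *C7*, the component that inserts the terminal complex into membranes. *Cfd* was at 0.398, 1.87, 0 and 0.277 CPM in liver, 1797, 2723, 1185 and 3169 CPM in SAT and 3434, 2052, 3144 and 2401 CPM in VAT. The log2 difference was -11.56 (SE 0.81, adjusted p = 7.8e-08) and -11.87 (SE 0.82, adjusted p = 7.3e-08), or -12.93 and -13.25 without liver library 2, the highest of the livers. *C7* was at 0.625, 1.59, 2.69 and 1.66 CPM in liver, 21.4, 65.9, 20.5 and 71.8 CPM in SAT and 41.3, 103, 43.2 and 116 CPM in VAT. The central component *C3*, named after its values were seen, was liver-biased at 7624 to 13050 CPM and still reached 737 to 1157 CPM in SAT and 476 to 1179 CPM in VAT.

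Bile acid, urea and amino acid genes were mostly liver-biased. Summed over each list, the level in fat was 342 to 795 CPM for bile acid genes, 16.7 to 62.9 CPM for the urea cycle and 965 to 2106 CPM for amino acid breakdown. The sums in liver were 12650 to 17830, 13660 to 21880 and 40670 to 52320 CPM in the same order. In the bile acid list 28 of 29 tested genes were liver-biased, and the other differed from a single depot. The medians were 11.16 against SAT and 8.47 against VAT, or 9.23 and 8.47 with genes at 3 counts or fewer in a tissue held at their bound, the latter 9.65 without VAT library 2. *Slc10a1*, the uptake carrier for bile salts on hepatocytes, had 599.5, 609, 530 and 580.1 CPM in liver and none in SAT, at least 12690-fold more. *Slc10a2*, its ileal relative, was low in liver at 13.3, 9.87, 14.97 and 13.3 CPM and had no count in any of the 8 fat libraries, which put liver at least 282-fold above SAT and 427-fold above VAT. *Baat*, which joins bile acids to taurine or glycine, was at 388 to 458 CPM against at most 0.623 CPM in fat.

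All 8 urea cycle genes were liver-biased at 4-fold or more, with medians of 10.19 against SAT and 9.33 against VAT, or 9.51 and 9.33 with genes at 3 counts or fewer in a tissue held at their bound. The first of these was 10.81 without SAT library 3. *Cps1*, which fixes ammonia into carbamoyl phosphate in mitochondria, was at 10580, 8945, 13970 and 10800 CPM in liver, 0, 0, 0 and 0.0799 CPM in SAT and 0.9, 12.4, 0 and 0.328 CPM in VAT, and the adjusted p was 2.2e-06 against SAT and 1.2e-05 against VAT. The next step, *Otc*, had 542, 506, 358 and 367 CPM in liver and none in SAT, at least 9709-fold more, and up to 0.356 CPM in VAT. *Arg1*, the arginase that frees urea, was at 1419 to 2825 CPM in liver, and its highest fat value was 5.29 CPM in VAT library 4. Within liver, library 3 was the highest for *Cps1*, *Ass1* and *Arg1*, and library 2 was the lowest for these 3 genes, at 1116, 892, 1859 and 1136 CPM for *Ass1* in library order.

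Of 46 genes for the breakdown of amino acids, 43 were liver-biased and 2 fat-biased. The medians were 8.73 against SAT and 7.87 against VAT, or 8.27 and 7.87 with genes at 3 counts or fewer in a tissue held at their bound, or 9.21 against VAT without its library 2. *Tat*, which starts the breakdown of tyrosine, was at 1593, 1205, 2435 and 1781 CPM in liver and at most 2.55 CPM in fat. *Mat1a*, the liver form of the enzyme that makes S-adenosylmethionine, was at 12400 to 16670 CPM in liver against at most 18.1 CPM in fat. *Mat2a*, the form of other tissues, was at 91.1, 96.97, 95.4 and 86.7 CPM in liver, 109, 93.6, 115 and 126 CPM in SAT and 121, 108, 132 and 117 CPM in VAT. For *Mat2a* the log2 fold changes of -0.26 (SE 0.11, adjusted p = 0.051) and -0.37 (SE 0.11, adjusted p = 0.011) passed the test with 95% intervals of -0.5 to -0.02 against SAT and -0.61 to -0.12 against VAT, both within 1 log2 unit of 0. The call against SAT was lost without liver library 1 or 4 or SAT library 3 or 4, at -0.15 to -0.25.

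The branched-chain amino acid list was less one-sided, with 13 of 23 genes liver-biased and 2 fat-biased and medians of 1.22 against SAT and 0.59 against VAT. *Bcat1*, which begins the breakdown of leucine, isoleucine and valine, had no count in any liver library and 1.94, 0.466, 3.77 and 1.76 CPM in SAT and 0.6, 4.81, 1.31 and 3.13 CPM in VAT, at least 36.8-fold and 45.7-fold more. *Bckdk*, the kinase that switches off the next enzyme of that pathway, was fat-biased too, with a log2 difference of -0.47 (SE 0.15, adjusted p = 0.011) and -0.99 (SE 0.15, adjusted p = 6.2e-05). *Ppm1k*, the phosphatase that switches it on, was at 383 to 579.7 CPM in liver and 26.4 to 39.6 CPM in fat. The liver excess was 4 (SE 0.18, adjusted p = 2.8e-09) and 3.95 (SE 0.18, adjusted p = 3.1e-09). *Bcat2*, the mitochondrial first step, named after its values were seen, passed against VAT alone, at 16.5 to 22.2 CPM in liver, 24 to 35.96 CPM in SAT and 20.5 to 66.9 CPM in VAT. Its liver values overlapped those of VAT and lay below those of SAT. The difference from SAT (-0.63) narrowly missed the threshold, and it passed without VAT library 2, 3 or 4 (-0.62 each).

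In glucose metabolism most genes for the release of glucose were liver-biased. Genes of glycolysis and fructose use were also more often liver-biased than fat-biased. Of 17 tested gluconeogenesis genes 14 were liver-biased and 2 fat-biased, with medians of 3.24 against SAT and 2.79 against VAT. *G6pc*, the catalytic subunit that frees glucose from its phosphate, was at 764, 846, 611 and 922 CPM in liver, 0.0921, 0.0777, 0 and 0.16 CPM in SAT and 0.734, 2.91, 0.238 and 0.219 CPM in VAT. No liver library was below 611 CPM and no fat library above 2.91 CPM, for a log2 fold change of 9.41 (SE 0.72, adjusted p = 1.7e-07) against VAT, which was 10.77 without VAT library 2. *Pck1*, the cytosolic enzyme that makes phosphoenolpyruvate and that fat uses to make glycerol, was in contrast abundant in all 12 libraries, at 4642, 4793, 3425 and 5205 CPM in liver, 1350, 1872, 1023 and 2409 CPM in SAT and 3157, 1583, 3129 and 2305 CPM in VAT. Its liver excess was small, 1.44 (SE 0.35, adjusted p = 0.0022) and 0.83 (SE 0.34, adjusted p = 0.047), though no fat library reached the lowest liver library, and with total counts alone the difference from VAT turned to -0.2. *Pck1* was named after its values were seen. The fat-biased members were *Pck2*, the mitochondrial form, at 3.75, 4.71, 4.21 and 4.495 CPM in liver against 14.2 to 22.8 CPM in fat, and *G6pc3*, the broadly expressed phosphatase, at 3.75 to 5.72 CPM in liver, 6.91 to 9.27 CPM in SAT and 13.4 to 18.6 CPM in VAT.

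In glycolysis and fructose use, 15 of 27 genes were liver-biased and 7 fat-biased, with 4 different from a single depot and 1 from neither and medians of 1.68 against SAT and 1 against VAT. The liver-biased members included the fructose kinase *Khk* at 99.2 to 146 CPM in liver and 2.41 to 6.98 CPM in fat. Fat-biased members were the hexokinase *Hk2*, at 3.46, 4.14, 1.35 and 3.804 CPM in liver, 28.4, 24.9, 25.97 and 29.7 CPM in SAT and 68.6, 53.3, 66.8 and 30.6 CPM in VAT, and *Pfkfb3*, which makes the activator of phosphofructokinase, at 5.21 to 7.26 CPM in liver and 223 to 599.9 CPM in fat, with log2 fold changes of -5.5 (SE 0.27, adjusted p = 5.2e-09) and -6.27 (SE 0.28, adjusted p = 3e-09). The glycogen list of 21 genes was even, with 10 liver-biased, 8 fat-biased and medians of 0.05 against SAT and -0.1 against VAT. Its *Gys2* and *Gys1*, the liver and muscle forms of glycogen synthase, were at 283 to 461 and 2.97 to 4.37 CPM in liver and 1.53 to 9.63 and 30.5 to 75.1 CPM in fat. *Phka1*, a regulatory subunit of phosphorylase kinase, was close to equal, with log2 fold changes of -0.47 (SE 0.14, adjusted p = 0.0083) and -0.35 (SE 0.14, adjusted p = 0.038), the second no longer past the threshold without VAT library 2 at -0.23.

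Fatty acid oxidation and the making of ketone bodies lay on the liver side, and the enzyme that uses ketone bodies lay on the fat side. Of 32 tested mitochondrial oxidation genes 28 were liver-biased and 1 was fat-biased (medians 2.22 against SAT and 1.71 against VAT), and of 23 peroxisomal genes 20 were liver-biased and 2 fat-biased. The medians were 4.94 against SAT and 4.14 against VAT. *Cpt1a*, the carnitine transferase that lets fatty acids into mitochondria, was at 1330, 1530, 1648 and 1730 CPM in liver, 70.9, 72.5, 89.4 and 60.96 CPM in SAT and 74.98, 141, 72.6 and 80.5 CPM in VAT. The liver excess of *Cpt1a* was 4.41 (SE 0.26, adjusted p = 2e-08) and 4.08 (SE 0.26, adjusted p = 3.5e-08), and the groups did not overlap. The single fat-biased member was *Cpt1c*, the brain form, at no more than 4.301 CPM in any fat library and 0.227 to 0.968 CPM in liver. Among peroxisomal genes, *Crot*, which exports shortened fatty acids, was at 2507 to 3983 CPM in liver and 29.7 to 45.6 CPM in fat. *Abcd2*, a peroxisomal fatty acid importer, was fat-biased at 102, 69.6, 49.1 and 22.2 CPM in liver, 265, 342, 231 and 453 CPM in SAT and 702, 337, 687 and 432 CPM in VAT.

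Of the 9 ketone body genes 7 were liver-biased and 2 fat-biased, with medians of 2.52 against SAT and 2.43 against VAT. *Oxct1*, the transferase that lets tissues other than liver use ketone bodies, was fat-biased, with 6.703, 5.33, 6.56 and 6.22 CPM in liver, 102, 109, 85.8 and 123 CPM in SAT and 236, 132, 176 and 169.9 CPM in VAT. Liver was lower for *Oxct1*, with a log2 difference of -4.08 (SE 0.2, adjusted p = 4.2e-09) and -4.85 (SE 0.2, adjusted p = 1.8e-09), and the highest liver library was far below the lowest fat library.

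In the tricarboxylic acid cycle and pyruvate dehydrogenase list, 20 of 29 genes were liver-biased, 2 fat-biased and 1 opposite against the depots, with small medians of 1.15 against SAT and 0.73 against VAT. *Fh1*, the fumarase, was higher in liver by 3.5 (SE 0.22, adjusted p = 3.5e-08) and 3.18 (SE 0.22, adjusted p = 7.4e-08). The fat-biased members were *Pdk3* and *Pdk4*, kinases that turn pyruvate dehydrogenase off, the latter at 56.8, 46.6, 13.96 and 16.2 CPM in liver, 89.5, 171, 92.2 and 207 CPM in SAT and 209, 144, 212 and 467 CPM in VAT. *Pdk2*, another kinase of that family, was between the depots at 35.4 to 42.6 CPM in liver, 19.4 to 28.6 CPM in SAT and 39.1 to 85.3 CPM in VAT, although its liver and VAT values overlapped. Its excess over SAT was lost without SAT library 3 (0.41) and turned to -0.51 with total counts alone. *Pdha1*, the subunit those kinases act on, was at a like level, with 138 to 161 CPM in liver, 89.6 to 140.2 CPM in SAT and 134 to 202 CPM in VAT.

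Fatty acid synthesis was split inside its own pathway. Of 27 lipogenesis genes 8 (29.6%) were liver-biased and 13 (48.1%) fat-biased, against 29.8% and 31.1% of all tested genes. The liver-biased share was thus no higher than that of all genes. The medians were -0.24 against SAT and -1.09 against VAT. *Fasn*, fatty acid synthase, was fat-biased at 77.99, 116, 74.7 and 82.8 CPM in liver, 735, 254, 223 and 257 CPM in SAT and 1885, 392, 746 and 153 CPM in VAT, and SAT library 1 and VAT library 1 were the highest of their depots. Its log2 fold changes of -2.06 (SE 0.63, adjusted p = 0.011) and -3.17 (SE 0.66, adjusted p = 0.00094) had wide errors, and every fat library was above every liver library. The difference from VAT was -2.29 without VAT library 1. *G6pdx*, the first enzyme of the pentose phosphate path that supplies NADPH, was at 4.88, 5.56, 5.21 and 6.16 CPM in liver, 49.02, 67.4, 63.5 and 96.7 CPM in SAT and 151, 105, 199 and 157 CPM in VAT, with log2 fold changes of -3.66 (SE 0.24, adjusted p = 5e-08) and -4.8 (SE 0.25, adjusted p = 8.7e-09). The carboxylases *Acaca* and *Acacb*, which supply malonyl-CoA, were fat-biased as well, with a log2 difference of -1.44 and -2.33 for *Acaca* and -1.04 and -2.18 for *Acacb* against SAT and VAT in that order. *Scd1*, the main stearoyl-CoA desaturase, was at 4788, 6653, 2573 and 646 CPM in liver, 10540, 13930, 6410 and 11480 CPM in SAT and 43280, 16280, 32830 and 11510 CPM in VAT, and its difference from SAT (-1.53, SE 0.7, adjusted p = 0.064) lost its call without liver library 3 or 4 or SAT library 2 or 4, at -1.44 to -1.17. *Fasn*, *Acaca*, *Acacb* and *Scd1* were named after their values were seen.

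Among the 8 liver-biased members of the same list, *Elovl2*, *Elovl5*, *Fads1* and *Fads2* lengthen and desaturate polyunsaturated fatty acids. The others were the factor *Mlxipl*, the elongase *Elovl3* and, named after their values were seen, the acetyl-CoA synthetase *Acss2* and the elongase *Elovl1*, which with total counts alone turned to -0.24 and -0.61. *Elovl5*, an elongase, was at 1345, 1781, 1592 and 1614 CPM in liver, 50.1, 49.6, 46.1 and 50.6 CPM in SAT and 56.2, 62.6, 58.9 and 63.6 CPM in VAT. *Elovl2*, the elongase of very long polyunsaturated chains, was at 1274 to 1476 CPM in liver and at most 4.19 CPM in fat. The desaturases *Fads1* and *Fads2* were liver-biased by 3.53 and 2.48 for *Fads1* and 6.81 and 4.53 for *Fads2* against SAT and VAT in that order, the last of these 5.89 without VAT library 2. *Fads3* of the same gene cluster went the other way, at 2.499, 2.27, 1.35 and 2.08 CPM in liver, 75.8, 102, 46.8 and 82.9 CPM in SAT and 348, 207, 265 and 213 CPM in VAT. The factors that drive lipogenic genes also parted. *Mlxipl*, the carbohydrate response factor ChREBP, was higher in liver, with log2 fold changes of 3 (SE 0.26, adjusted p = 4.2e-07) and 2.14 (SE 0.25, adjusted p = 6.6e-06) and *Srebf1*, which codes for SREBP-1, was higher in fat, with log2 fold changes of -1.39 (SE 0.32, adjusted p = 0.0018) and -1.77 (SE 0.32, adjusted p = 0.00035), and both were named after their values were seen. Without the 5 libraries high in ribosomal RNA, which left a single SAT library, the differences from SAT of *Fasn*, *Acaca*, *Acacb*, *Scd1* and *Srebf1* did not pass, at -1.33, -0.87, -0.51, -0.73 and -1.14.

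Genes for the storage and release of fat were divided between the tissues. Of 30 genes for lipolysis and the lipid droplet 13 (43.3%) were fat-biased, 11 (36.7%) liver-biased and 1 opposite. The first 2 shares were 31.1% and 29.8% over all tested genes. The medians were -0.16 against SAT and -1.08 against VAT. *Plin1*, the coat of the adipocyte droplet, had 0, 0, 0 and 0.0692 CPM in liver, 318, 304, 235 and 479 CPM in SAT and 996, 336, 847 and 349 CPM in VAT (adjusted p = 1.1e-08 against SAT and 7.2e-09 against VAT). *Lipe*, hormone-sensitive lipase, was at 13.9, 17.8, 14.3 and 16.7 CPM in liver, 436, 472, 339 and 615 CPM in SAT and 1307, 494, 1224 and 648 CPM in VAT. The log2 difference was -4.89 (SE 0.35, adjusted p = 9.1e-08) and -5.87 (SE 0.37, adjusted p = 3.2e-08). *Plin4*, *Cidec* and *Pnpla2*, the last being adipose triglyceride lipase and named after its values were seen, were lower in liver, with a log2 difference of -5.51 and -6.72 for *Plin4*, -3.94 and -5.12 for *Cidec* and -3.02 and -3.66 for *Pnpla2* against SAT and VAT in that order. For *Plin1*, *Lipe* and *Cidec*, VAT libraries 1 and 3 were above VAT libraries 2 and 4.

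The droplet genes on the liver side were *Cideb*, which loads lipoproteins, at 115, 132, 119.9 and 143 CPM in liver and at most 2.32 CPM in fat, *Hsd17b13* at 381 to 607 CPM in liver and at most 0.772 CPM in fat, and, named after their values were seen, *Plin2* and *Plin5*. *Plin2*, the coat of small droplets, was at 1099, 1444, 942 and 1297 CPM in liver, 119.7, 203, 200.5 and 345 CPM in SAT and 206, 202, 382 and 516 CPM in VAT. *Mgll*, the lipase for monoglycerides, was opposite against the depots, at 296, 478, 231 and 356 CPM in liver, 235, 203, 152 and 244 CPM in SAT and 878, 383, 729 and 462 CPM in VAT. Its excess over SAT did not pass without liver library 2 (0.51) or SAT library 3 (0.58) and was -0.33 with total counts alone. In triglyceride synthesis, 9 of 23 tested genes (39.1%) were liver-biased and 8 (34.8%) fat-biased, not far from the 29.8% and 31.1% of all tested genes. The medians were 1.08 against SAT and 0.28 against VAT. *Aqp7* and *Aqp9*, the glycerol channels of fat and liver, were nearly exclusive, with *Aqp7* at 49.1 to 150.3 CPM in fat and at most 0.283 CPM in liver, and *Aqp9* at 438 to 824 CPM in liver and 0.369, 0.621, 0.951 and 0.959 CPM in SAT and 2.43, 28.7, 1.54 and 1.495 CPM in VAT. *Dgat1*, the last step, was fat-biased, with a log2 difference of -1.5 (SE 0.29, adjusted p = 0.00051) and -1.94 (SE 0.3, adjusted p = 8.2e-05), and *Gpat4*, at the first step, was liver-biased by 2.48 (SE 0.21, adjusted p = 3.8e-07) and 1.91 (SE 0.21, adjusted p = 3.6e-06).

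**Figure D4:**
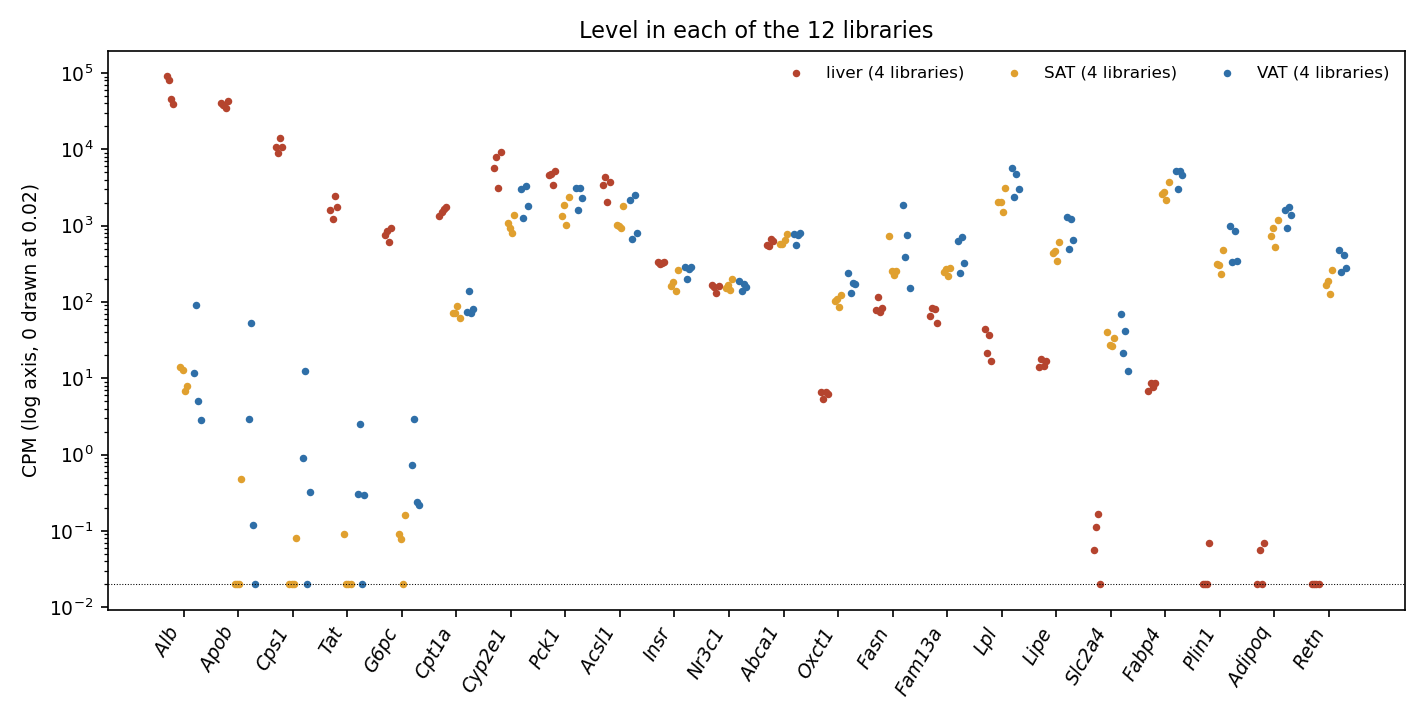
CPM (log axis) of 22 named genes in each of the 12 libraries, coloured by tissue, with values of 0 drawn at the bottom of the axis. *Alb*, *Cps1* and *Tat* lie far above fat in every liver library, *Plin1*, *Adipoq* and *Retn* lie near 0 in liver, *Abca1* and *Nr3c1* overlap across the tissues, and VAT library 2 is the fat library nearest to liver for *Apob* at 52.5 CPM.

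Fatty acid uptake was evenly divided, with 10 of 22 tested genes liver-biased and 11 fat-biased. The medians were -0.01 against SAT and -0.91 against VAT. *Lpl*, lipoprotein lipase, was at 44.2, 21.6, 36.5 and 16.6 CPM in liver, 2022, 2028, 1499 and 3090 CPM in SAT and 5669, 2373, 4785 and 2987 CPM in VAT. The log2 difference was -6.19 (SE 0.48, adjusted p = 1.9e-07) and -7.06 (SE 0.5, adjusted p = 9.7e-08). *Cd36*, the fatty acid translocase, was at 116 to 149.7 CPM in liver, 1457 to 2735 CPM in SAT and 2499 to 4142 CPM in VAT. *Cav1*, the coat protein of caveolae, was at 2.39, 4.88, 3.36 and 2.56 CPM in liver, 332, 382, 245 and 323 CPM in SAT and 1103, 802, 876 and 814 CPM in VAT. SAT minus VAT was -1.49 (SE 0.23, adjusted p = 0.00041). Liver had the transport proteins *Slc27a2* and *Slc27a5* at 2667 to 3199 and 884 to 1057 CPM, against at most 16.5 and 1.43 CPM in fat.

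Lipoprotein genes were mostly of liver, with 25 of 30 liver-biased, 3 fat-biased and medians of 6.97 against SAT and 6.33 against VAT, or 6.45 and 6.33 with genes at 3 counts or fewer in a tissue held at their bound. Without VAT library 2 the median against VAT was 6.97. *Apob*, the structural protein of very low density lipoprotein, was at 40580, 37570, 34330 and 43000 CPM in liver, 0, 0, 0 and 0.479 CPM in SAT and 2.97, 52.5, 0.119 and 0 CPM in VAT, with an adjusted p of 4.1e-05 against SAT and 0.00032 against VAT. *Apoe*, which ligates lipoprotein receptors, was high everywhere at 8191, 9739, 6800 and 7695 CPM in liver, 643, 1055, 646 and 1386 CPM in SAT and 1482, 1136, 1766 and 1620 CPM in VAT, and the liver excess was 3.12 (SE 0.35, adjusted p = 4.8e-06) and 2.43 (SE 0.34, adjusted p = 3.9e-05). The fat-biased members were *Apod*, the cholesterol exporter *Abcg1* at 11.8 to 16.6 CPM in liver and 65.8 to 177 CPM in fat, and *Pltp*. *Abca1*, which lipidates apolipoprotein A-I, was at a like level, 564, 539.7, 669 and 637 CPM in liver, 575, 576, 644 and 775 CPM in SAT and 778, 553, 750.2 and 799 CPM in VAT, with 95% intervals of its log2 fold changes of -0.48 to 0.29 against SAT and -0.64 to 0.13 against VAT.

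Sterol synthesis was less tissue-bound, with 14 of 27 genes liver-biased, 2 fat-biased, 7 different from a single depot and 4 from neither. The medians were 1.47 against SAT and 0.54 against VAT. *Insig2*, which holds the sterol sensor back, was at 797 to 945 CPM in liver and 19.4 to 58.1 CPM in fat. *Insig1*, its relative, was at a like level with 52.7, 56.5, 51.3 and 62.4 CPM in liver, 64.96, 43.4, 51.7 and 63.4 CPM in SAT and 61.4, 55.9, 47.05 and 31.8 CPM in VAT. The fat-biased members were *Hmgcs1*, the cytosolic synthase, with a log2 difference of -0.98 (SE 0.35, adjusted p = 0.022) and -1 (SE 0.35, adjusted p = 0.021), and the esterifying enzyme *Soat1*. Without SAT library 4, the highest SAT library for *Hmgcs1*, its difference from SAT was -0.43 and did not pass.

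Drug and iron handling followed the liver pattern. Of 45 tested genes for drug and steroid metabolism 39 were liver-biased, 2 fat-biased and 1 opposite. The medians were 4.66 against SAT and 3.39 against VAT. *Cyp3a25* and *Cyp2j5*, monooxygenases of liver, were at 1710 to 2287 and 519 to 791 CPM in liver and at most 4.33 and 1.13 CPM in fat. *Cyp2e1*, the ethanol-inducible form, was an exception in its size, at 5746, 8058, 3111 and 9154 CPM in liver, 1073, 940.3, 805 and 1391 CPM in SAT and 3044, 1257, 3323 and 1808 CPM in VAT, with 1 liver library below the highest VAT library and a liver excess of 2.63 (SE 0.43, adjusted p = 0.00013) and 1.47 (SE 0.42, adjusted p = 0.0075). The fat-biased members were *Cyp1b1* at 1.47 to 3.36 CPM in liver and 36.2 to 133 CPM in fat, and *Aldh1a3*, a retinaldehyde dehydrogenase. In the iron and heme list 20 of 22 tested genes were liver-biased, none fat-biased and 2 different from neither depot. The medians were 2.3 against SAT and 1.54 against VAT. *Tfr2*, the iron sensor, was at 399 to 510.2 CPM in liver and 0.474 to 1.75 CPM in fat, and the heme enzyme *Ppox* was at a like level, 11.6 to 18.5 CPM in liver and 11.4 to 19.1 CPM in fat.

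The adipokine list held 11 fat-biased and 5 liver-biased genes of 18 tested, with medians of -2.59 against SAT and -4.27 against VAT. *Adipoq*, which codes for adiponectin, was at 0, 0.0567, 0 and 0.0692 CPM in liver, 724, 929.6, 524 and 1197 CPM in SAT and 1587, 929, 1767 and 1368 CPM in VAT, with an adjusted p of 1.3e-09 against SAT and 1.1e-09 against VAT. *Retn*, resistin, had no count in liver and 166, 186, 129 and 261 CPM in SAT and 478, 247, 417 and 281 CPM in VAT, at least 3441-fold and 6596-fold more than liver. *Lep*, leptin, had 67.5, 157, 39.1 and 81.9 CPM in SAT, 249, 236, 184 and 194 CPM in VAT and a single count over the 4 livers. SAT minus VAT was -1.32 (SE 0.33, adjusted p = 0.0081). *Nampt* and *Rarres2*, the latter the precursor of chemerin, were liver-biased although they are called adipokines, at 63.9 to 119.7 and 279 to 347 CPM in liver and 45.8 to 72.8 and 58.1 to 157 CPM in fat. For *Nampt* the excess was small, 0.59 (SE 0.2, adjusted p = 0.019) and 0.53 (SE 0.2, adjusted p = 0.033), and its liver values overlapped those of VAT but not those of SAT. The call against VAT was lost without liver library 1 (0.34), and total counts alone gave -0.48 and -0.52.

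Hormone receptors and insulin signaling genes were mixed, with 16 of 33 liver-biased and 7 fat-biased. The medians were 0.8 against SAT and 0.3 against VAT. *Gcgr*, the glucagon receptor, was at 216, 247, 176 and 241 CPM in liver and at most 1.66 CPM in fat. *Tshr*, the thyrotropin receptor, had no count in liver and 45.5, 51.6, 40.1 and 86.3 CPM in SAT and 133, 50.2, 138 and 56.1 CPM in VAT, at least 1036-fold and 1749-fold more. *Slc2a4*, the insulin-responsive glucose transporter, was at 0.0568, 0.113, 0.168 and 0 CPM in liver, 40.3, 27.2, 26.3 and 33.6 CPM in SAT and 70.04, 21.4, 41.2 and 12.3 CPM in VAT. *Insr*, the insulin receptor, named after its values were seen, was higher in liver than in SAT (0.81, SE 0.19, adjusted p = 0.002) but did not pass against VAT (0.3, SE 0.19, adjusted p = 0.17), at 329.8, 312, 326 and 336 CPM in liver, 161, 184, 139 and 261 CPM in SAT and 290.5, 203, 273 and 290 CPM in VAT, and so it was not liver-biased by the rule. Its difference from SAT was -0.24 with total counts alone, and without SAT library 4 it also passed against VAT (0.37). *Nr3c1*, the glucocorticoid receptor, and the kinase *Akt1* were at a like level, with *Nr3c1* at 169, 158, 133 and 160.5 CPM in liver, 150.3, 168, 144 and 198 CPM in SAT and 190, 141, 173 and 158 CPM in VAT. The 95% intervals for *Nr3c1* were -0.39 to 0.21 against SAT and -0.4 to 0.21 against VAT. *Adipor1*, an adiponectin receptor, was within 1 log2 unit of both depots as well, though it was above SAT by 0.71 (SE 0.1, adjusted p = 2.8e-05), or -0.36 with total counts alone.

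Transcription factors of each cell type followed the same lines, with 22 of 41 liver-biased, 9 fat-biased and 2 opposite. The medians were 2.53 against SAT and 1.48 against VAT. *Hnf4a*, a master regulator of hepatocyte genes, was at 660.1, 732, 786 and 674 CPM in liver, absent from the SAT counts and at 0.167, 13.03, 0.238 and 0 CPM in VAT, where library 2 held nearly all of it. *Foxa3* had 42.5 to 70.99 CPM in liver, none in SAT and at most 0.119 CPM in VAT. On the fat side, *Ebf1*, a factor of the adipocyte lineage, was at 1.42, 1.08, 1.85 and 1.59 CPM in liver, 154, 174, 166 and 185 CPM in SAT and 194, 119, 191 and 157 CPM in VAT. The log2 difference was -6.88 (SE 0.22, adjusted p = 4.7e-10) and -6.84 (SE 0.22, adjusted p = 4.1e-10). *Klf14* had no count in liver and 1.57, 3.11, 0.713 and 2.64 CPM in SAT and 7.77, 5.195, 5.58 and 5.43 CPM in VAT, at least 37.2-fold and 111-fold more. *Cebpg*, a partner of other C/EBP factors, was at a like level, 61.3 to 69.4 CPM in liver and 54.6 to 78.3 CPM in fat.

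Within pairs of related genes, the more abundant form often differed between the tissues. For 16 pairs in which a form known from liver stands against one known from other tissues, the log2 ratio of their TPM was taken within each library, which does not depend on the scaling between tissues. In 15 pairs the ratio in every liver library was above that in all 8 fat libraries. The pairs were chosen for forms known from liver, so the ratios are a description with no test. In 13 pairs the liver form was ahead in every liver library and the other form in every fat library. Wide shifts were those of the fatty acid carriers *Fabp1* and *Fabp4*, the glucose transporters *Slc2a2* and *Slc2a4*, and the glycerol channels *Aqp9* and *Aqp7*. The log2 ratio of *Fabp1* to *Fabp4* was 11.74, 12.01, 10.94 and 11.58 in liver, -9.6, -9.21, -10.03 and -10.34 in SAT and -11.15, -6, -13.41 and -14.92 in VAT, where library 2 was the nearest to liver. *Slc2a2*, the high-capacity transporter of hepatocytes, stood to *Slc2a4* at 11.04, 10.89, 9.1 and 12.83 in liver, -10.5, -10.18, -8.52 and -6.98 in SAT and -7.34, -4.48, -6.47 and -5.49 in VAT. These ratios rest on a few counts of the minor form, with 0.5 counts added to each, so their sign is firmer than their size.

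Among enzymes of glucose use, the log2 ratio of the pyruvate kinases *Pklr* and *Pkm* was 1.64, 2.69, 1.91 and 2.7 in liver and -12.05 to -3.58 over the fat libraries. Glycogen synthases *Gys2* and *Gys1* gave 7.14, 8.02, 7.52 and 8.04 in liver and -3.52 to -2.1 in fat, and the glycogen phosphorylases *Pygl* and *Pygb* 4 to 4.84 in liver and -1.24 to -0.23 in fat. For the phosphofructokinases *Pfkl* and *Pfkp* the liver form was ahead in all 12 libraries, at 3.22 to 4.04 in liver and 0.11 to 1.27 in fat.

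In lipid and amino acid metabolism, *Ppara* to *Pparg*, the nuclear receptors that govern fat burning and fat storage, gave 4.75, 4.69, 5.25 and 4.88 in liver, -4.1, -4.41, -4.99 and -4.43 in SAT and -4.55, -3.9, -4.83 and -5.23 in VAT, with little spread in any group. The lipins *Lpin2* and *Lpin1*, phosphatases of triglyceride synthesis, gave 2.76 to 3.86 in liver and -4.68 to -2.06 in fat. *Cpt1a* to *Cpt1b* was above 0 in every library, at 10.02 to 10.27 in liver and 6.59 to 9.08 in fat. The other pairs in which the forms changed places were *Lipc* to *Lpl*, *Soat2* to *Soat1*, *Cideb* to *Cidec*, *Mat1a* to *Mat2a* and *Slc27a5* to *Slc27a1*, with liver ratios of 3.42 to 4.86, 2.84 to 3.61, 1.02 to 2.69, 7.38 to 7.82 and 6.29 to 7.35 and fat ratios of -14.01 to -10.14, -5.59 to -2.95, -16.19 to -8.64, -12.36 to -2.2 and -13.69 to -6.76, respectively. The exception was the pair of insulin receptor substrates. *Irs2* to *Irs1* was -0.56, -0.18, -0.26 and -0.33 in liver, 0.01, 0.22, 0.14 and 0.23 in SAT and 0.02, 0.69, -0.17 and 0.91 in VAT, below the fat libraries rather than above them by mean differences of -0.49 against SAT and -0.7 against VAT.

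**Figure D5:**
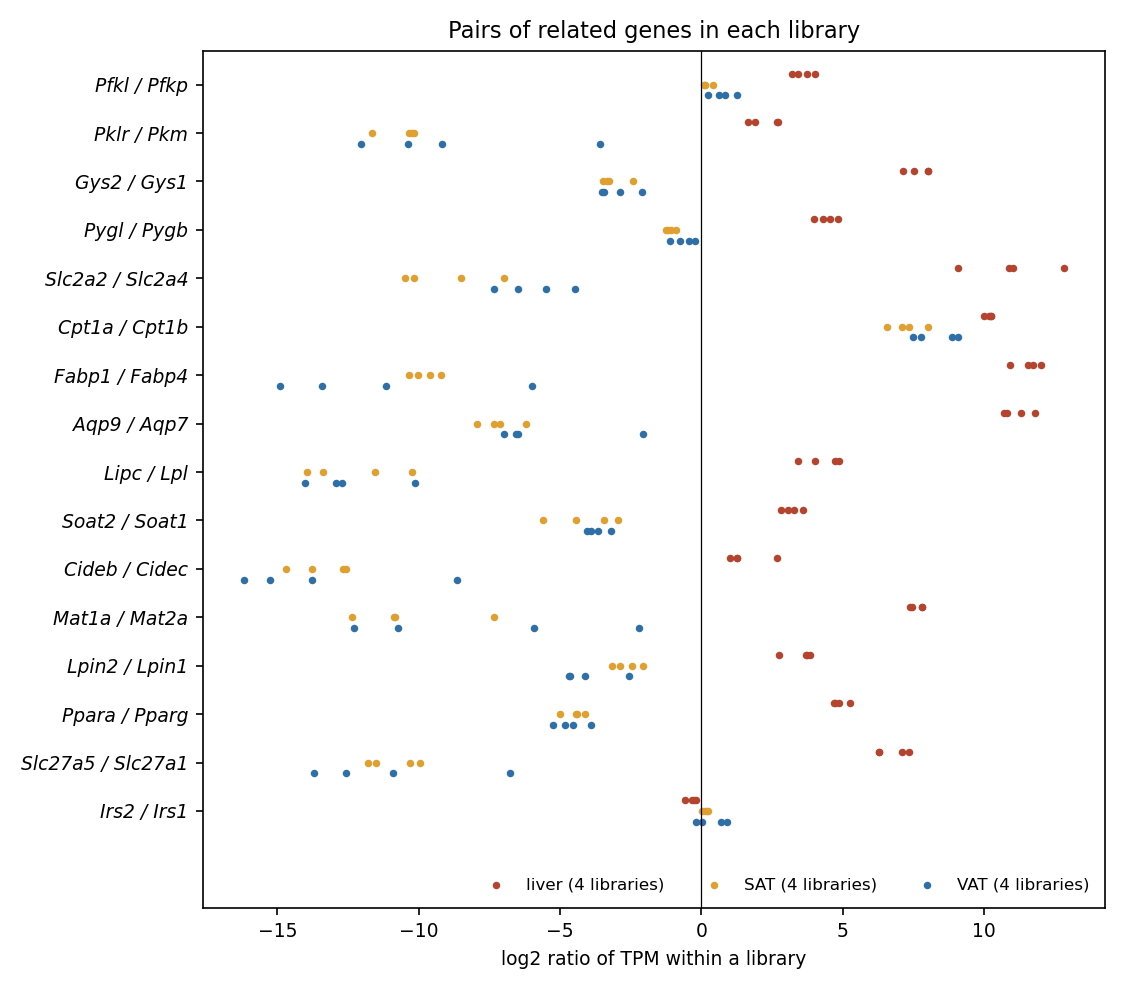
Log2 ratio of the TPM of the form known from liver to that of the other form, for 16 pairs, in each of the 12 libraries, coloured by tissue, with a line at equal TPM. Liver libraries lie right of all fat libraries in 15 pairs, and *Irs2* to *Irs1* is the exception.

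Genes at a like level were taken as those whose 95% interval lay within 1 log2 unit of 0 against both depots, which held for 3699 genes (21.7% of those tested) but for only 24 of the 633 metabolic genes (3.79%). No metabolic list held more than 3 of them, and many held none, among these the plasma protein, urea cycle, lipogenesis and adipokine lists. The 24 genes included *Abca1*, *Nr3c1*, *Akt1*, *Mat2a*, *Phka1*, *Pdha1*, *Insig1*, *Ppox*, *Cebpg* and *Adipor1*, described with their lists. *Hk3*, a hexokinase of blood cells, was among them at 8.12, 8.39, 7.07 and 3.804 CPM in liver, 5.71, 5.75, 10.01 and 7.67 CPM in SAT and 4.83, 4.16, 7.49 and 11.4 CPM in VAT, and the 3 groups overlapped. Where libraries were scaled by total counts alone, 1515 genes rather than 3699 met this rule.

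A small group could not be called liver-biased because the depots lay on either side of liver. They were 219 with the 12 libraries, 348 without SAT library 4 and 112 with total counts alone. Of the 219, 11 were in the lists, and 5 of these were metabolic, among them *Mgll*, *Pdk2*, *Gata6* and *Wt1*. *Wt1*, a mesothelial factor, had 0.511, 0.51, 0 and 1.11 CPM in liver, none in SAT and 10.3, 10.4, 15.9 and 23.1 CPM in VAT, and *Upk3b*, another mesothelial gene, 1.99, 0.17, 0.168 and 1.18 CPM in liver, 0, 0, 0.034 and 0.16 CPM in SAT and 31.9, 27.5, 40.6 and 77.7 CPM in VAT. *Msln* and *Upk1b*, which are mesothelial as well, were ordered in the same way, but their calls against SAT were lost without liver library 1 (1.23 and 4.61) and, for *Msln*, also without SAT library 1, 2 or 3. The *Gata6* call against VAT was lost without liver library 2 or 4 or VAT library 4, at -0.45 to -0.4, and its difference from SAT was -0.33 with total counts alone. *Marco*, a scavenger receptor of macrophages, was ordered the other way, at 16.1, 14.6, 14.1 and 6.57 CPM in liver, 41.5, 37.8, 92.1 and 64.2 CPM in SAT and 1.4, 0.861, 4.51 and 2.19 CPM in VAT, as was *Timd4* at 11.5, 11.3, 11.3 and 10.3 CPM in liver, 25.1, 35.5, 32.7 and 15.6 CPM in SAT and 2, 1.395, 1.66 and 2.41 CPM in VAT. The summed Kupffer markers, which include both, were 362 to 399 CPM in liver, 126 to 269 CPM in SAT and 36.5 to 102 CPM in VAT. Of these 6 markers 3 were liver-biased, 1 was fat-biased and 2 were opposite against the depots. Among them *Clec4f*, the marker most restricted to Kupffer cells, was at 117 to 137 CPM in liver and at most 0.102 CPM in fat. The part of other cell types in these orders was not tested.

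Among the liver-biased genes of tryptophan breakdown, 3 enzymes picked after their values were seen were also higher in SAT than in VAT. *Kynu*, *Kmo* and *Haao* were at 309 to 432, 402 to 592 and 180.3 to 198 CPM in liver. In SAT *Kynu* was at 13.4, 15.1, 16.1 and 3.52 CPM, *Kmo* at 29.7, 29.5, 32.3 and 14.8 CPM and *Haao* at 14.1, 10.6, 13.9 and 4.08 CPM, and in VAT they were at 0.7, 1.69, 0 and 0.146, 2.5, 5.61, 1.31 and 1.42 and 0.867, 2.46, 0.356 and 0.62 CPM. SAT was above VAT by 3.99 (SE 0.63, adjusted p = 0.00052), 3.22 (SE 0.41, adjusted p = 0.00013) and 3.15 (SE 0.46, adjusted p = 0.00034), and without VAT library 2 by 5.01, 3.85 and 3.95. SAT library 4, the lowest for all 3, was also the lowest SAT library for the lymphocyte markers, whose part was not tested. *Tdo2*, the first enzyme of the kynurenine path in liver, named on the same ground, was at 3048 to 3667 CPM in liver and 0.533 to 5.22 CPM in fat with no difference between the depots that passed (-0.12, SE 0.67, adjusted p = 0.91). Without VAT library 2, which held the highest fat value, SAT was above VAT for *Tdo2* as well, by 1.29 (adjusted p = 0.038). *Lepr*, the leptin receptor, also named after its values were seen, was at 94.5, 63.3, 292 and 75.8 CPM in liver, 37.1, 32, 55.3 and 23.1 CPM in SAT and 2.7, 4.42, 4.87 and 8.89 CPM in VAT, so that its level fell from liver to SAT to VAT. Liver library 3 was the highest, and without it the differences were 1.09 and 3.9.

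*Fam13a*, the gene deleted elsewhere in the series and intact here (chr6:58932090-59024549, minus strand, GRCm38), was itself fat-biased. Its level was 66.2, 82.8, 80.1 and 53.3 CPM in liver, 248, 272, 216 and 275 CPM in SAT and 631, 242, 715 and 325 CPM in VAT, without overlap between liver and fat. Liver was lower, with a log2 difference of -1.84 (SE 0.31, adjusted p = 0.00015) against SAT and -2.76 (SE 0.32, adjusted p = 6.6e-06) against VAT. SAT minus VAT was -0.92 (SE 0.3, adjusted p = 0.029). VAT libraries 1 and 3 were again above VAT libraries 2 and 4.

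The same classes were then formed in libraries that share no sample with these 12. In 12 libraries from male KO mice on chow, sequenced on the same lanes, 77.8% of the 5090 liver-biased genes were liver-biased again (92.4% of the 4289 found there) and 81.6% of the 5317 fat-biased genes were fat-biased again (82.2% of the 5278 found there), with none called in the opposite class. In 12 libraries from male WT mice on HFD, all on other lanes, the shares were 74.5% (80.4% of the 4720 found there) and 80.6% (72% of the 5951 found there), and 31 liver-biased and 9 fat-biased genes fell in the opposite class. Liver shared no lane with fat in either set, so tissue and lane cannot be told apart there either. The background was 25.9% liver-biased and 31.9% fat-biased of the genes tested in KO mice on chow, and 27.7% and 34.9% in WT mice on HFD. In the KO chow and WT HFD libraries in that order, the liver excess was 9.76 and 9.52 for *G6pc* against VAT, and the log2 fold change of *Pck1* was 1.38 and 0.62 against SAT and 1.92 and 1.83 against VAT. For *Fasn* it was -2.54 and -2.68 against SAT and -2.71 and -3.01 against VAT, and *Fasn* was fat-biased in both sets. Of the 432 liver-biased metabolic genes, 404 and 402 were liver-biased again, and of the 107 fat-biased ones 96 and 94 were fat-biased again. Among the 13 fat-biased lipogenic genes this held for 10 and 9. *Acaca* was fat-biased in both sets, but *Acacb* and *Scd1* differed from neither depot in either set, with -0.7 and -0.15 for *Acacb* and -0.67 and -0.58 for *Scd1* against SAT. *Srebf1* was fat-biased in the KO chow libraries and not in the WT HFD libraries, with -2.53 and 0.36 against SAT and -1.84 and 0.61 against VAT. *Oxct1* was lower in liver in both sets, with a log2 difference of -4.82 and -6.05 against SAT and -4.91 and -5.79 against VAT.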

How the data were processed

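RNA of liver, SAT and VAT was made into libraries with a stranded Illumina kit. How ribosomal RNA was removed is not given in the sources used here. Per the authors' methods and processing notes, reads were aligned to GRCm38 (mm10) with STAR (2.5.3a in the notes, a later version in the methods). The deposited values are whole-number counts of reads per gene from the same program. For gene annotation the methods name an older GENCODE release than the one used here. Which strand column was kept is not given in the sources used here. Sense and antisense partners that overlap are therefore uncertain, as are near-identical copies.

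Here, gene symbols and exon lengths came from GENCODE M21, in which 48435 of 48795 gene IDs had a symbol. The 12 libraries were fitted together in R 4.3.3 with edgeR 4.0.16 (TMM scaling, filterByExpr on tissue, quasi-likelihood test, 1 coefficient per tissue), with Benjamini-Hochberg adjustment over the 17073 genes tested and a threshold of 10%. The SE is the size of the log2 fold change divided by the square root of F. TPM left out the ribosomal RNA gene. Paired ratios had 0.5 counts added. A planned exact permutation test of them is not given, since the pairs were chosen for known tissue forms. On simulated data with 200 changed genes among 17073, 87.5% of 4-fold and 41.7% of 2-fold changes were recovered and 2.24% of calls were false. The libraries themselves gave 5090 liver-biased and 5317 fat-biased genes, far more than were changed in the simulation. Its rates therefore do not carry over to these data, where the calls also depend on the scaling between tissues.

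The groups and gene lists were chosen with earlier results of these data known. Genes were named by a rule: all paired genes, *Fam13a*, markers, the 10 most abundant liver-biased and fat-biased genes at 4-fold or more, list members in opposite directions and, per metabolic list, up to 5 called members with the largest smaller-side fold change, 4 with the smallest and 3 at a like level. Others are said to be named after their values were seen. Some genes and 4 of 20 pairs are left out for a reason unrelated to their values and are not reported here, so tallies of pairs cover the other 16. A gene with no count in a tissue is given a bound from 3 counts over that tissue, which covers counting error only. Depth was 8662690 to 28723319 counts per library. Alternatives were RLE, upper-quartile and total-count scaling, other filters, DESeq2 1.42.0, limma-voom 3.58.1, an FDR of 5%, leaving out the ribosomal RNA gene or each library, and a fit of 24 male chow libraries with genotype.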

Additional observations from a re-analysis of the deposited data

Results flagged for a closer look

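A library standing far from the other 3 of its tissue was looked for in 436 groups of 4 values, those of the named genes with more than 3 counts in the tissue. A library was taken as apart when its gap to the nearest of the others as a share of the group's range passed Dixon's 95% critical value. For normal values chance gives this in about 1 of 20 groups. That rate is no measure here, since the values were CPM, the groups share the same 12 libraries, and a library that alone holds counts always passes. A library was apart in 56 groups, and 33 of them were VAT library 2, above its 3 counterparts each time. In VAT library 2 these were *Alb* at 91.8 CPM, *Ttr* at 4.66 CPM, *Fgb* at 5.05 CPM, *Mup3* at 8.07 CPM, *Mup20* at 2.46 CPM, *Hamp* at 0.683 CPM, *C8b* at 0.356 CPM, *C9* at 0.653 CPM and *Slc27a5* at 1.43 CPM. Further genes high there were *Baat* at 0.623 CPM, *Slc10a1* at 0.416 CPM, *Pklr* at 5.52 CPM, *Cps1* at 12.4 CPM, *Tat* at 2.55 CPM, *Tdo2* at 5.22 CPM, *Mat1a* at 18.1 CPM, *Cpt1a* at 141 CPM and *Slc27a2* at 16.5 CPM. The same library was apart for *Elovl2* at 4.19 CPM, *Fads2* at 37.4 CPM, *Aqp9* at 28.7 CPM, *Cideb* at 2.32 CPM, *Hsd17b13* at 0.772 CPM, *Fabp1* at 5.82 CPM, *Apoa1* at 10.3 CPM, *Apoa2* at 5.28 CPM and *Apob* at 52.5 CPM. It was also apart for *Apod* at 46.8 CPM, *Cyp2j5* at 1.13 CPM, *Cyp3a25* at 4.33 CPM, *Hnf4a* at 13.03 CPM, *Foxa3* at 0.119 CPM and *Serpina1e* at 4.01 CPM. Most of them code for proteins of hepatocytes, and the library also held epididymal markers. The naming rule favours genes far higher in liver and near 0 in fat, so the large part of hepatocyte genes among them is no result. The part of other tissue in these values was not tested.

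The other 23 groups were scattered. SAT library 3 was high for *Arg1* (1.697 CPM, next 0.24) and *Hsd17b13* (0.17 CPM, next 0) and low for *Rbp4* (14.5 CPM, next 28.1), *Pdk2* (19.4 CPM, next 28.4) and *Ppara* (2.95 CPM, next 5.98). Liver library 4 was high for *C8b* (433 CPM, next 345) and *Cpt1c* (0.968 CPM, next 0.336). Liver library 1 was low for *Gys2* (283 CPM, next 439) and *Fads2* (269 CPM, next 327). SAT library 4 was high for *Mat1a* (0.559 CPM, next 0), *Elovl3* (1.04 CPM, next 0.0777), *Dgat1* (130.3 CPM, next 84.4), *Apoa1* (0.719 CPM, next 0.184) and *Apob* (0.479 CPM, next 0) and low for *Kmo* (14.8 CPM, next 29.5). Liver library 3 was high for *Cyp1b1* (3.36 CPM, next 1.76) and *Lepr* (292 CPM, next 94.5) and low for *Bckdk* (12.3 CPM, next 16.9). SAT library 1 was high for *Fasn* (735 CPM, next 257). VAT library 3 was high for *Akt1* (53.9 CPM, next 47.1). VAT library 4 was high for *Rarres2* (132 CPM, next 77.3). VAT library 1 was high for *Klf14* (7.77 CPM, next 5.58). SAT library 2 was high for *Gata6* (6.37 CPM, next 4.95). Of the paired ratios, on the log2 scale, a library was apart for *Pfkl* to *Pfkp* in SAT library 1 (0.41, next 0.15), *Pklr* to *Pkm* in SAT library 3 (-11.65, next -10.33), *Aqp9* to *Aqp7* in VAT library 2 (-2.07, next -6.49), *Cideb* to *Cidec* in liver library 1 (2.69, next 1.26) and *Lpin2* to *Lpin1* in liver library 3 (2.76, next 3.72).

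For 9 named genes the liver level lay above one depot and below the other. They were picked by those calls, which fix the direction of the SAT minus VAT difference, so that difference is a description and was not tested on its own. SAT differed from VAT for 47% of all tested genes. On the log2 scale the SAT minus VAT difference was -1.56 for *Mgll*, -1.31 for *Pdk2*, -1.29 for *Gata6*, -11.1 for *Wt1*, 3.85 for *Timd4*, 4.9 for *Marco*, -6.53 for *Msln*, -9.72 for *Upk3b* and -11.58 for *Upk1b*. Fitted values for *Wt1*, *Upk3b* and *Upk1b*, which had at most 3 counts over the SAT libraries, depend on the prior count and are no bounds. Without SAT library 4 the difference was -10.76 for *Upk3b* and -7.24 for *Msln*.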

How the results depend on the processing

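The direction of small differences depends on scaling. With total counts alone, liver was higher than SAT for 2508 genes and lower for 11745, and higher than VAT for 2093 and lower for 11796. Liver-biased genes then numbered 1838 (929 at 4-fold or more), fat-biased genes 10676 (4243 at 4-fold or more) and genes at a like level 1515. Of the 312 named differences, 17 turned. Against SAT these became -1.02 for *Pfkl*, -0.33 for *Mgll*, -0.74 for *Pdha1*, -0.51 for *Pdk2*, -0.24 for *Insr*, -0.63 for *Irs1*, -0.36 for *Adipor1*, -0.48 for *Nampt*, -0.94 for *Cebpg*, -0.33 for *Gata6*, -1.05 for *Ppox* and -0.24 for *Elovl1*, and against VAT -0.2 for *Pck1*, -0.9 for *Insig1*, -0.76 for *Insr*, -0.52 for *Nampt* and -0.61 for *Elovl1*. *Pfkl* against SAT was also -0.49 in the fit of 24 libraries with genotype.

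With at least 10 counts in every library, 10813 genes were left, so that genes near 0 in a tissue were not tested. Liver was lower than SAT for 4158 of them and lower than VAT for 3671, 3052 were fat-biased (509 at 4-fold or more) and 534 were liver-biased at 4-fold or more. Without the 5 libraries high in ribosomal RNA, a choice made after seeing the data that left 7 libraries and SAT library 3 as the only one of SAT, assumed to vary like the others, 2196 genes were at a like level and 18 of the named calls were lost, 16 of them against SAT. Liver-biased and fat-biased genes numbered 5001 and 5816 with DESeq2, 5217 and 4983 with limma-voom and 4698 and 4813 at an FDR of 5%.

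Leaving out 1 library at a time gave 4811 to 5322 liver-biased and 5116 to 5348 fat-biased genes. VAT library 2 moved more named values than any other library, 43 by over 1.5 times, all against VAT. Of 3744 such values, 22 lost their call and 10 gained one, and 0 of 288 alternatives for the paired ratios changed direction. Those made with ratios of counts could not, since such ratios differ from ratios of TPM by a constant for each pair. Leaving out a library cannot move a group mean by more than the spread of the group, so the size of those moves was not a test. No paired analysis was possible because the replicate numbers do not link the tissues of a mouse. Counts of 3 or fewer set a bound on a fold, so the size of differences between a liver gene and fat is limited by depth. Tissue and lane cannot be told apart within the 12 libraries.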
